A study of Mus musculus with 11 samples.

Results

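The type IV collagen chains, encoded in the mouse by Col4a1 to Col4a6, were followed as 6 of 18193 genes measured in embryonic kidney. They were chosen by name. Each was read through every probe set that the platform annotation assigns to that gene and no other, 12 of 34945 such probe sets: 3 for Col4a4, 1 for Col4a2 and 2 for each of the other four. Where a gene had several, the one with the highest mean log2 over all arrays stands for the gene, and the rest are given beside it. Values are log2 of the deposited intensity unless a rank is named.

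Whole RNA of mouse kidney at embryonic day 17 was labelled and hybridised to Affymetrix expression arrays, 11 samples with 1 array each. Under titles with the letters E17R2 there were 3 Robo2 homozygous arrays (numbered 2, 8 and 9) and 3 wild-type arrays (numbered 1, 3 and 7). Under R2E17 there was 1 homozygous and 1 wild-type array, called the R2E17 pair here, and 3 more homozygous arrays (numbered 3, 4 and 5) had titles with R2NB, letters whose meaning the sources used here do not give. Robo2 encodes a receptor for Slit proteins that restricts where the ureteric bud forms. The labels name neither the kind of Robo2 allele nor the strain, and do not say whether kidneys were pooled or came from separate animals, so each p-value is set by how far these samples spread, a spread that may be technical. Some free-text labels describe brain tissue of a patient, against the mouse organism and kidney tissue labels, which were followed.

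Type IV collagen is the network-forming collagen of basement membranes, and 3 chains wind into each triple-helical protomer. The network made of chains 1 and 2 is found in nearly all basement membranes and is the one that the fetal glomerulus starts with. In the maturing glomerular basement membrane it is replaced by a network of chains 3, 4 and 5 that podocytes secrete, and loss of any of these chains causes Alport syndrome. Chains 5 and 6 form a further network in Bowman's capsule, around smooth muscle and in some tubules. The genes lie in head-to-head pairs, Col4a1 with Col4a2, Col4a3 with Col4a4 and Col4a5 with Col4a6.

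The start regions of the genes are shown because this pairing is the natural frame for asking whether chains moved together on the arrays. In RefSeq (build GRCm38.p6), 5 of the 6 members matched the table of promoter windows, each of 300 bases from 250 before to 50 after the start of the gene. The Col4a1 window is chr8:11312777-11313076 on the minus strand and the Col4a2 window chr8:11312555-11312854 on the plus strand. Their starts are 21 bases apart on opposite strands, and the windows share 78 bases, chr8:11312777-11312854. The Col4a4 window is chr1:82586800-82587099 (minus strand), and Col4a3 is its neighbour in the order of coding genes. On the X chromosome the Col4a6 window is chrX:141474027-141474326 (minus strand) and the Col4a5 window chrX:141475169-141475468 (plus strand). The starts of those 2 genes are 1343 bases apart and the windows share no base. Each window is written 5′ to 3′ on the strand of its gene, and the shared stretch on the plus strand. Capitals mark the GC box (GGGCGG, or CCGCCC on the other strand) and the CCAAT box (CCAAT, or ATTGG on the other strand).
Col4a1: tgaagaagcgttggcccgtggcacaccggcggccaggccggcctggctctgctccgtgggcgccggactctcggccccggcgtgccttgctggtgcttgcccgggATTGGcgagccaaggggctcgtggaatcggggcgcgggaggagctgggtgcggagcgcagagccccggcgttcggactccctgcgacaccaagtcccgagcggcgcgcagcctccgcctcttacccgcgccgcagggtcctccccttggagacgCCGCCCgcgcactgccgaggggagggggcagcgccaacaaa
Col4a2: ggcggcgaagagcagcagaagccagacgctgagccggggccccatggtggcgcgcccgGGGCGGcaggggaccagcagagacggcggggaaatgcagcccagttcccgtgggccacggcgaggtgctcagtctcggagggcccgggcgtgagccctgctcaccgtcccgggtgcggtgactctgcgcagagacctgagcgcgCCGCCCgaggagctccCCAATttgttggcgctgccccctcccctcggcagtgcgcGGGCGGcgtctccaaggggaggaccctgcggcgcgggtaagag
Shared by Col4a1 and Col4a2: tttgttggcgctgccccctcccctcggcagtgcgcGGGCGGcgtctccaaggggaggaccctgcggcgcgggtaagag
Col4a4: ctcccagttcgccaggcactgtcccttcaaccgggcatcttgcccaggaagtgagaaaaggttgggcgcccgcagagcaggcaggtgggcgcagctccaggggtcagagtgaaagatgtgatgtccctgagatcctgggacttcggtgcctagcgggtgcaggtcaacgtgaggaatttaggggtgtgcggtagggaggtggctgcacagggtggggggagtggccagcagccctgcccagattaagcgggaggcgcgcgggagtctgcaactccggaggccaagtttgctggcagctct
Col4a5: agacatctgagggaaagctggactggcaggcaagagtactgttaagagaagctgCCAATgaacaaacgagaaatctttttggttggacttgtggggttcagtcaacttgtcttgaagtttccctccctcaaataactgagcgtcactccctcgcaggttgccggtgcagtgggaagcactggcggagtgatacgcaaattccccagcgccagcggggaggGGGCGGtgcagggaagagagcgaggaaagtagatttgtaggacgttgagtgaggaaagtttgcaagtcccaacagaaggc
Col4a6: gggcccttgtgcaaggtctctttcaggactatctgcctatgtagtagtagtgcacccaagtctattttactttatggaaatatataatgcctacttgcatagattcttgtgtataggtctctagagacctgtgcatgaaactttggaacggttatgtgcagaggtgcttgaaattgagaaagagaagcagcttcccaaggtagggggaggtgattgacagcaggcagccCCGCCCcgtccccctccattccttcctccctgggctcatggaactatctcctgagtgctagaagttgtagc

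The windows of the paired fetal chains were rich in G and C, 74.0% in Col4a1 and 73.7% in Col4a2, against 63.3% in Col4a4, 52.7% in Col4a5 and 48.3% in Col4a6. The GC box letters occurred once in the Col4a1 window and 3 times in that of Col4a2, one of which is the same stretch read from both sides. They occurred once each in the windows of Col4a5 and Col4a6 and not in that of Col4a4, while 35.7% of 32851 RefSeq windows of the same length hold them. The CCAAT letters occurred once each in Col4a1, Col4a2 and Col4a5, against 37.4% of all windows. Neither the TATA letters TATAAA (13.6% of windows, both strands) nor the homeodomain core TAATTA (5.29%, identical on both strands) was in any of the 5 windows. A match is a run of letters and was not tested as a binding site.

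The arrays fell into 2 sets that had been normalized apart, so levels are compared within a set and ranks between sets. The R2E17 pair and the R2NB arrays, here the set of 5, had median intensities of 47.1 to 53.4, and the E17R2 arrays, the set of 6, had 23.4 to 24.6. The median gene differed by 1.02 (log2) between the sets. Robo2 itself was dim on every array. It read 2.03, 2.37 and 2.33 in homozygous arrays 2, 8 and 9 of E17R2, against 3.13, 3.68 and 3.16 in wild-type arrays 1, 3 and 7, and 3.37 against 3.96 in the R2E17 pair. It read 3.28, 3.86 and 3.99 in the R2NB arrays, so only in E17R2 did the labelled genotypes separate with replicates. The sources used here do not say where its probes lie relative to the altered part of the gene. Brain markers had a list median at percentile 13.6 to 25.4 of the arrays' genes, while the 7 proximal tubule markers stood at 69.1 to 95.1. Homozygous array 9 of E17R2 stood apart, with the smooth muscle actin Actg2 at 12.8 against 5.34 to 7.09 on the other 5 arrays of its set. The largest 3′ minus 5′ differences were those of the wild-type array in the R2E17 pair, 0.70 for Gapdh and 1.12 for Actb, where the other arrays reached 0.22 and 0.75. In whole-kidney RNA, fewer cells of a type and less RNA per cell cannot be told apart.

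Taken by array, the fetal chains hardly varied within a set. Col4a1, whose product supplies most of the chains of the broadly distributed network, read 11.86, 11.87 and 11.95 in the homozygous E17R2 arrays, against 11.90, 11.94 and 11.86 in the wild-type ones. It read 13.16 in the homozygous and 13.21 in the wild-type array of the R2E17 pair, and 13.25, 13.20 and 13.25 in the R2NB arrays. The genotypes overlapped in E17R2, and the R2NB arrays lay at most 0.09 from the pair. The second probe set of Col4a1 ran likewise, at 9.79, 9.68 and 9.91 in homozygous and 9.85, 9.88 and 9.91 in wild-type arrays of E17R2. Col4a2, the partner chain in the same protomer, read 10.75, 10.67 and 10.79 in homozygous arrays of E17R2, against 10.75, 10.80 and 10.85 in wild-type arrays. In the set of 5 it was 12.57, 12.56 and 12.68 in the R2NB arrays, 12.47 in the homozygous and 12.49 in the wild-type array of the pair. With the R2NB arrays averaged, the order there was R2NB, wild-type, homozygous for both fetal chains. The steps were 0.02 to 0.11, against an SD among R2NB arrays of 0.03 for Col4a1 and 0.07 for Col4a2. For Col4a1 R2NB array 4 (13.20) lay just below the wild-type array (13.21).

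The chains of the mature glomerular network varied more. Col4a3 read 5.60, 5.65 and 5.17 in the homozygous E17R2 arrays, against 5.37, 5.75 and 5.50 in the wild-type arrays. Homozygous array 9 was the lowest of the 6, and the other homozygous arrays lay inside the wild-type range. In the set of 5, Col4a3 read 7.93, 8.77 and 8.73 in R2NB arrays 3, 4 and 5, 7.92 in the homozygous and 8.47 in the wild-type array of the pair. R2NB array 3 and the homozygous array of the pair were thus alike and low, and the other R2NB arrays were high.

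Col4a4 encodes a chain assembled with chain 3. Array 9 was the lowest of E17R2 for both genes, and R2NB array 3 and the homozygous array of the pair were the lowest 2 of the set of 5 for both. Its values were 7.43, 7.26 and 6.42 in homozygous arrays 2, 8 and 9 of E17R2, against 7.28, 7.46 and 7.30 in wild-type arrays. Array 9 lay 0.84 below the next homozygous array, and the groups overlapped. In the set of 5 it read 9.69, 10.35 and 10.26 in the R2NB arrays, 9.79 in the homozygous and 10.17 in the wild-type array of the pair.

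Col4a5, which is shared by the network of chains 3, 4 and 5 and that of chains 5 and 6, read 8.89, 8.89 and 8.99 in homozygous arrays of E17R2, against 8.92, 8.92 and 8.31 in wild-type arrays. The low value was wild-type array 7, and the other 5 arrays spanned 0.09. In the set of 5 the R2NB arrays were at 10.23, 10.22 and 10.23, the homozygous array of the pair at 10.11 and the wild-type array at 10.66. Its second probe set did not show the low wild-type array, with 7.23, 7.28 and 7.29 in homozygous and 7.09, 7.41 and 7.25 in wild-type arrays of E17R2.

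Col4a6, the partner of chain 5 outside the glomerular basement membrane, was the one chain whose genotypes separated. It read 6.01, 6.12 and 6.53 in homozygous arrays 2, 8 and 9 of E17R2, against 5.51, 5.93 and 5.75 in wild-type arrays 1, 3 and 7. Every homozygous array lay above every wild-type array, by 0.08 at the nearest pair, and array 9 was the highest. The second probe set gave 5.15, 5.20 and 5.82 in homozygous arrays, against 4.73, 4.76 and 5.0 in wild-type arrays, again with no overlap. In the set of 5 the values stayed between 6.55 and 6.69, with 6.60, 6.60 and 6.69 in the R2NB arrays and 6.55 and 6.61 in the homozygous and wild-type arrays of the pair.

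**Figure D1:**
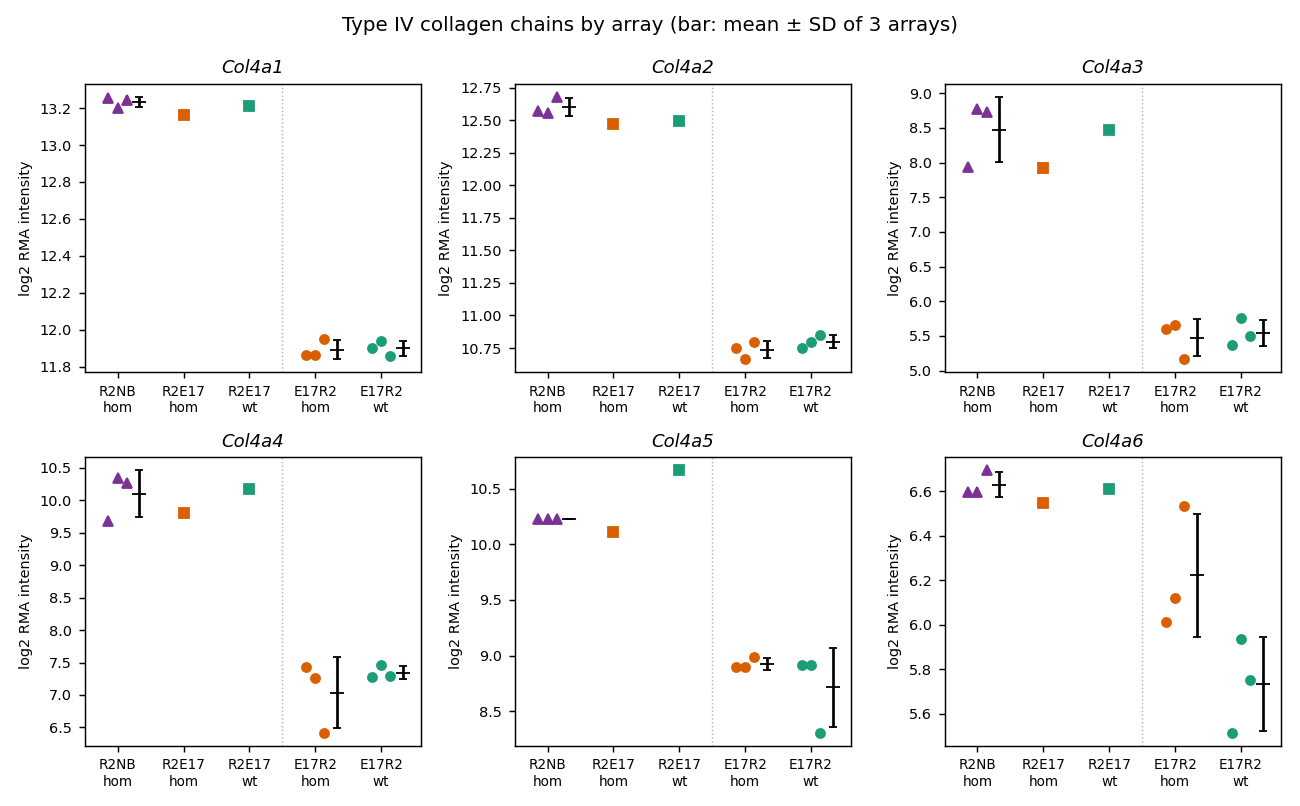
Log2 RMA intensity (y axis) of the main probe set of each type IV collagen gene on all 11 arrays, by title series and genotype (hom, Robo2 homozygous; wt, wild-type). Points are arrays, bars the mean ± SD of groups of 3, and the dotted line parts the 2 separately normalized sets. Only for Col4a6 do the homozygous E17R2 arrays (6.01 to 6.53) all lie above the wild-type ones (5.51 to 5.93).

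The Robo2 genotypes were compared first in E17R2, with 3 homozygous against 3 wild-type arrays. No chain passed the test over all genes. The largest difference was that of Col4a6, which averaged 6.22 ± 0.27 in homozygous arrays and 5.73 ± 0.21 in wild-type arrays (SD over 3 arrays each), a difference of 0.49 ± 0.17 (SE, limma adjusted p = 0.840, unadjusted 0.0253). Of all genes, 2.16% had a difference at least as high. Its second probe set differed by 0.56 ± 0.19. Over all 18193 genes limma called 0%, with 1019 at an unadjusted p under 0.05 and a smallest adjusted p of 0.840. Genes with every homozygous array above every wild-type array made up 5.05% of the total, and 2.52% were higher at an unadjusted p under 0.05. Col4a6 was 1 of the 6 chains on both counts. Without homozygous array 9 its difference was 0.33 ± 0.14 (adjusted p = 0.872).

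Among the chains of the mature glomerular network the differences had no common direction. Col4a4 averaged 7.04 ± 0.54 in homozygous and 7.34 ± 0.10 in wild-type arrays, a difference of -0.31 ± 0.26 (SE, limma adjusted p = 0.853). Without homozygous array 9 it was 0.0009, so that array alone carried the difference. Col4a3 averaged 5.47 ± 0.27 in homozygous and 5.54 ± 0.19 in wild-type arrays, and the difference of -0.07 ± 0.16 was 0.08 without array 9. Col4a5 averaged 8.92 ± 0.05 in homozygous and 8.71 ± 0.35 in wild-type arrays. Its difference of 0.21 ± 0.17 (limma adjusted p = 0.853) was 0.0073 without wild-type array 7, and its second probe set gave 0.01 ± 0.11. Of the further probe sets, the second of Col4a3 differed by 0.08 ± 0.10 and those of Col4a4 by -0.23 ± 0.21 and -0.04 ± 0.09.

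The fetal chains differed least. Col4a1 averaged 11.89 ± 0.05 in homozygous and 11.90 ± 0.04 in wild-type arrays, a difference of -0.01 ± 0.08, and Col4a2 averaged 10.74 ± 0.06 in homozygous and 10.80 ± 0.05 in wild-type arrays, a difference of -0.06 ± 0.08. The second probe set of Col4a1 differed by -0.09 ± 0.10. The median of all genes was -0.01, and that of the 6 chains -0.03.

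**Figure D2:**
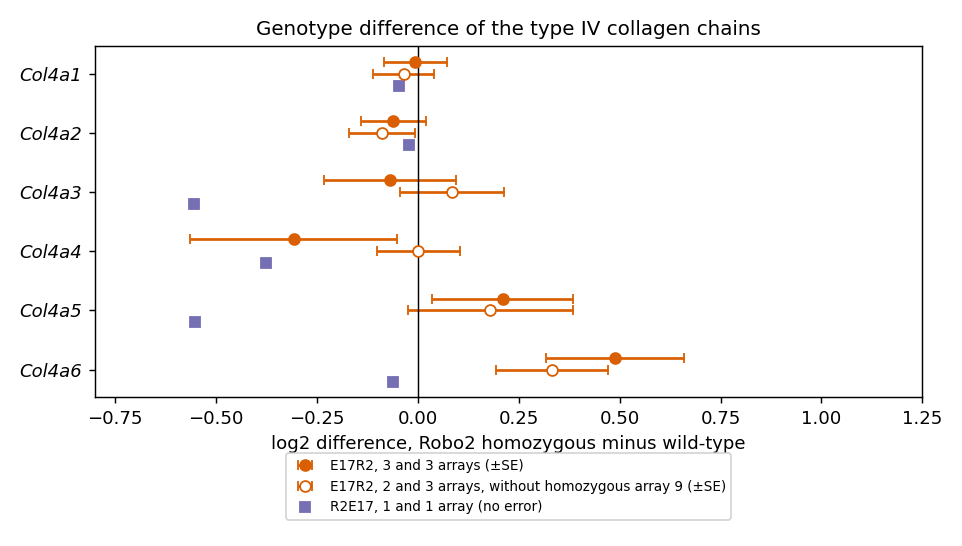
Log2 difference, Robo2 homozygous minus wild-type (x axis), of each type IV collagen gene. Filled circles are E17R2 with all 6 arrays (± SE), open circles E17R2 without homozygous array 9 (± SE), and squares the R2E17 pair, which has no error. Without that array Col4a4 is at 0.0009 in place of -0.31, and Col4a6 at 0.33 in place of 0.49.

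The R2E17 pair gives 1 array against 1, with no replicate check and no test. There the mature glomerular chains were lower in the homozygous array, with differences of -0.55 for Col4a3 (7.92 against 8.47), -0.38 for Col4a4 (9.79 against 10.17) and -0.55 for Col4a5 (10.11 against 10.66). The fetal chains and Col4a6 lay near 0, at -0.05 for Col4a1, -0.02 for Col4a2 and -0.06 for Col4a6, against a median of 0.01 over all genes. Further probe sets did not all follow: that of Col4a3 gave 0.28, that of Col4a5 0.38, and those of Col4a4 -0.63 and -0.07. The spread among the 3 homozygous R2NB arrays of the same set, 0.47 for Col4a3 and 0.36 for Col4a4 (SD), was about as wide as these differences. For Col4a5 that spread was 0.003, with R2NB arrays 3 and 5 at one identical value (10.23), and such ties were common in this set. The wild-type array of the pair was also the one with the largest 3′ minus 5′ differences, and the part of this in the values was not tested.

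The 2 title series were set against each other in one model. The genotype difference in E17R2 minus that in the pair was 0.76 ± 0.35 (SE) for Col4a5, 0.55 ± 0.34 for Col4a6 and 0.49 ± 0.33 for Col4a3. None passed in limma, at adjusted p values of 0.488, 0.634 and 0.673, and over all genes 0.044% were called. For Col4a1, Col4a2 and Col4a4 it was 0.04 ± 0.16, -0.04 ± 0.16 and 0.07 ± 0.51. The single arrays of the pair were assumed to vary like the E17R2 groups.

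Between the sets of arrays the chains parted into groups. A percentile rank is the share of all genes on an array at or below the gene, and it does not depend on how a set was scaled. Col4a3 and Col4a4 ranked far higher in the set of 5 than among the E17R2 arrays, Col4a6 ranked lower, Col4a2 slightly higher, and Col4a1 and Col4a5 did not pass the test. The title set, its normalization and its handling cannot be told apart here. Shifts past the threshold, small ones among them, were common: 23.7% of genes were called higher and 25.4% lower in the limma test with genotype as a covariate. Of the 6 chains, 3 were called higher and 1 lower. The share of all genes whose ranks did not overlap between the sets was not counted, so non-overlap is given below only as a description.

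Col4a4 stood at percentiles 81.5 to 89.1 in the set of 5 (median 87.8) and at 52.2 to 66.3 in the set of 6 (median 63.8). The sets did not overlap, and the shift was 24.4 ± 2.60 percentile points (SE, limma adjusted p = 7.58e-05), a size that 0.368% of genes reached. Its other probe sets shifted by 22.1 ± 2.01 and 16.2 ± 0.78 points. The last of these was dim, at 3.97 to 4.12 (log2) in E17R2, where the median over genes was 6.29. Col4a3 stood at 54.9 to 68.2 in the set of 5 (median 64.3) and at 38.1 to 44.0 in the set of 6 (median 42.2). Its shift of 20.8 ± 2.83 points (adjusted p = 0.0003) was reached by 0.616% of genes, and the second probe set shifted by 13.1 ± 1.20. That probe set was dim too, at 4.10 to 4.38 in E17R2. The part of low intensity in the shifts of the dim probe sets was not tested. In log2 after quantile normalization of all 11 arrays together, Col4a4 was 1.75 ± 0.19 and Col4a3 1.71 ± 0.20 higher in the set of 5. Col4a5 did not move with its glomerular partners. It stood at 86.4 to 92.0 in the set of 5 and, overlapping, at 79.1 to 87.8 in E17R2, with a shift of 2.94 ± 1.70 points (adjusted p = 0.181) and 1.21 ± 0.74 at its second probe set.

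The fetal chains sit so close to the top of every array that a rank leaves little room. Col4a1 was at 99.6 to 99.7 in the set of 5 and at 99.4 on every array of the set of 6, a shift of 0.26 ± 0.33 points (limma adjusted p = 0.535). Its second probe set, ranked among all probe sets, shifted by 2.32 ± 0.38 points (adjusted p = 0.0010). Col4a2 was at 98.9 to 99.2 in the set of 5, against 97.4 to 97.9 in E17R2, a shift of 1.45 ± 0.34 points (adjusted p = 0.0058). On the jointly normalized log2 scale the fetal chains were higher in the set of 5 as well, Col4a1 by 0.40 ± 0.05 (adjusted p = 1.33e-04) and Col4a2 by 0.73 ± 0.06, less than chains 3 and 4 on that scale.

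Col4a6 ranked at 40.7 to 41.8 in the set of 5 (median 41.2) and at 42.3 to 53.7 in the set of 6 (median 46.4). All 5 arrays lay below all 6, and the shift was -6.59 ± 1.54 points (SE, limma adjusted p = 0.0059), with 9.36% of genes at least as low. On the jointly normalized log2 scale it was -0.64 ± 0.14. Its second probe set overlapped between the sets and shifted by -1.08 ± 1.75 (adjusted p = 0.645). In the set of 5 several arrays shared one exact value, such as 6.25 for that probe set on 3 arrays, and any 2 arrays of that set had 4633 to 6876 probe sets with identical values, against 112 to 236 for 2 arrays of E17R2. Without the R2NB arrays the calls of Col4a6 (-5.58, adjusted p = 0.113) and Col4a2 (1.33, adjusted p = 0.121) were lost, whereas Col4a3 (17.8, adjusted p = 0.0036) and Col4a4 (22.8, adjusted p = 0.0055) kept theirs.

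**Figure D3:**
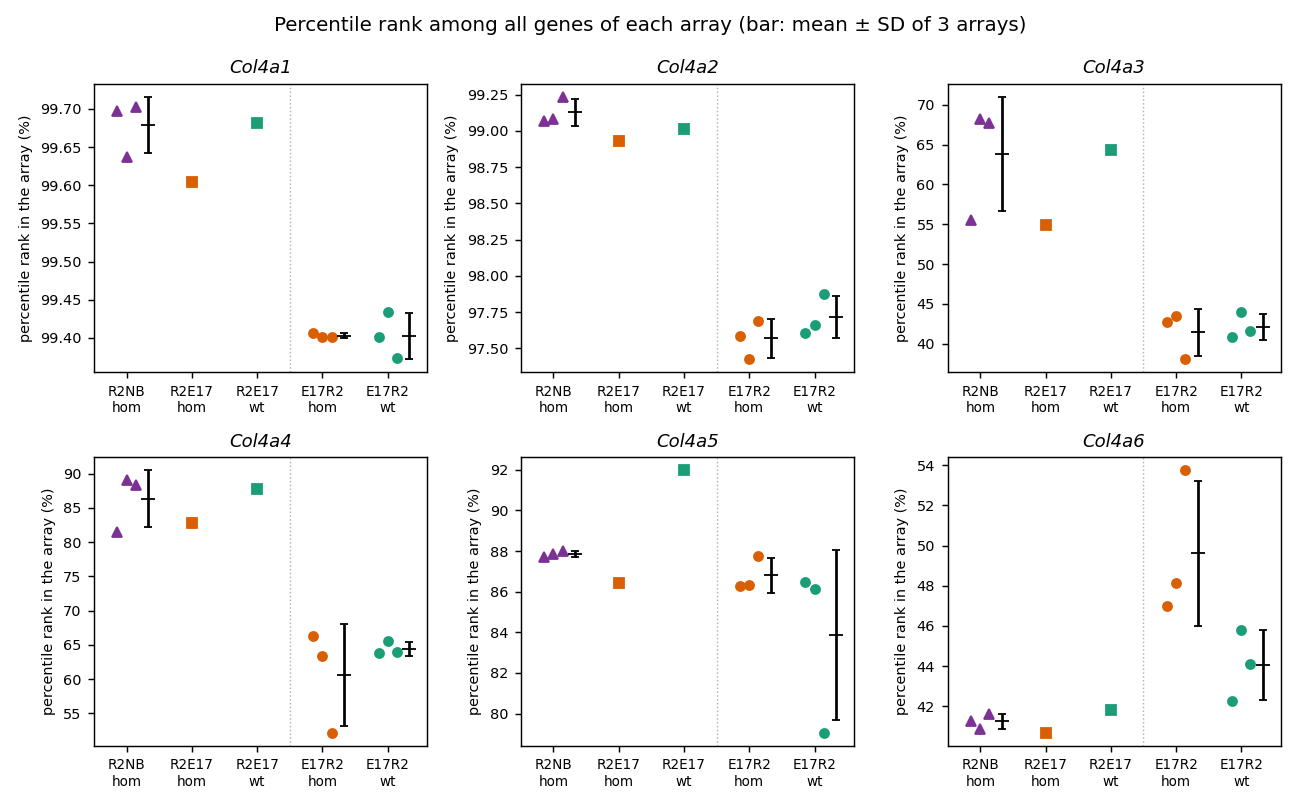
Percentile rank among the genes of each array (y axis, %) of each type IV collagen gene, by title series and genotype (hom, Robo2 homozygous; wt, wild-type). Points are arrays, bars the mean ± SD of groups of 3, and the y axes differ in range. Col4a3 and Col4a4 rank higher on all arrays left of the dotted line (54.9 to 68.2 and 81.5 to 89.1) than on those right of it (38.1 to 44.0 and 52.2 to 66.3), and Col4a6 ranks lower. Col4a1 and Col4a2 also rank higher on all arrays left of the line, by little.

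Marker genes that shifted alongside were counted from the lists of cell types. Over all genes 23.7% were called higher and 25.4% lower. The loop of Henle and distal tubule list had 5 of 5 genes called higher in the set of 5 (median shift 23.2 points), the proximal tubule list 6 of 7 (12.5), the endothelial list 6 of 8 (6.49) and the podocyte list 4 of 6 (4.64). The 6 podocyte markers, of the cells that secrete chains 3, 4 and 5, had a median percentile of 76.1 to 79.5 in the set of 5, against 67.5 to 78.0 in E17R2. In the list of nephron progenitors 0 of 5 genes were called higher and 2 lower, and in the stromal list 0 and 2 of 5. The mesangial and pericyte list had 1 of 5 higher and 1 lower, and the brain list 2 and 2 of 7. Smooth muscle (8 genes) and adrenal (6 genes) had 0 called either way. The part of these cell types in the shifts of Col4a3, Col4a4 and Col4a6 was not tested.

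Within the set of 5, the R2NB arrays were also compared with the homozygous array of the pair, which shares their genotype label. At the main probe set all 6 chains were nominally higher in R2NB, and none passed. Col4a3 averaged 8.48 ± 0.47 in R2NB arrays (SD, n = 3), against 7.92 in the 1 array of the pair, a difference of 0.56 ± 0.47 (SE, limma adjusted p = 0.986). Col4a4 averaged 10.10 ± 0.36 against 9.79, a difference of 0.30 ± 0.36. Col4a5 differed by 0.12 ± 0.03 (adjusted p = 0.582, unadjusted 0.025), but its second probe set went the other way, at -0.13 ± 0.04. Col4a2 differed by 0.13 ± 0.07, Col4a6 by 0.08 ± 0.06 and Col4a1 by 0.07 ± 0.04. The further probe sets of the other chains lay above 0. Over all genes 0% were called, with 1329 at an unadjusted p under 0.05 and a smallest adjusted p of 0.540. The lone homozygous array was assumed to vary like the R2NB arrays. It also differed from them in sex-linked transcripts. Xist, a transcript of the inactive X chromosome, read 10.8 on it and 4.57 to 4.89 in R2NB. The Y-linked Kdm5d read 3.13 on it and 7.24 to 7.52 in R2NB. This difference and the title series cannot be told apart here.

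How far the paired genes moved together from array to array was described after the mean of each set was taken away. Over the 11 arrays Col4a3 and Col4a4 had a Pearson correlation of 0.83 (Spearman 0.82), with 0.98 in the set of 5, 0.85 in the set of 6 and 0.92 without homozygous array 9. Among genes with a mean percentile rank of at least 50, only 0.941% had a correlation with Col4a3 as high. Col4a1 and Col4a2 had 0.48 (Spearman 0.45) and Col4a5 and Col4a6 0.33 (0.34). Across networks, Col4a4 and Col4a6 had -0.55, which was 0.05 without array 9. These are descriptions over arrays that share their normalization and whatever RNA quality and cell makeup they have in common.

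**Figure D4:**
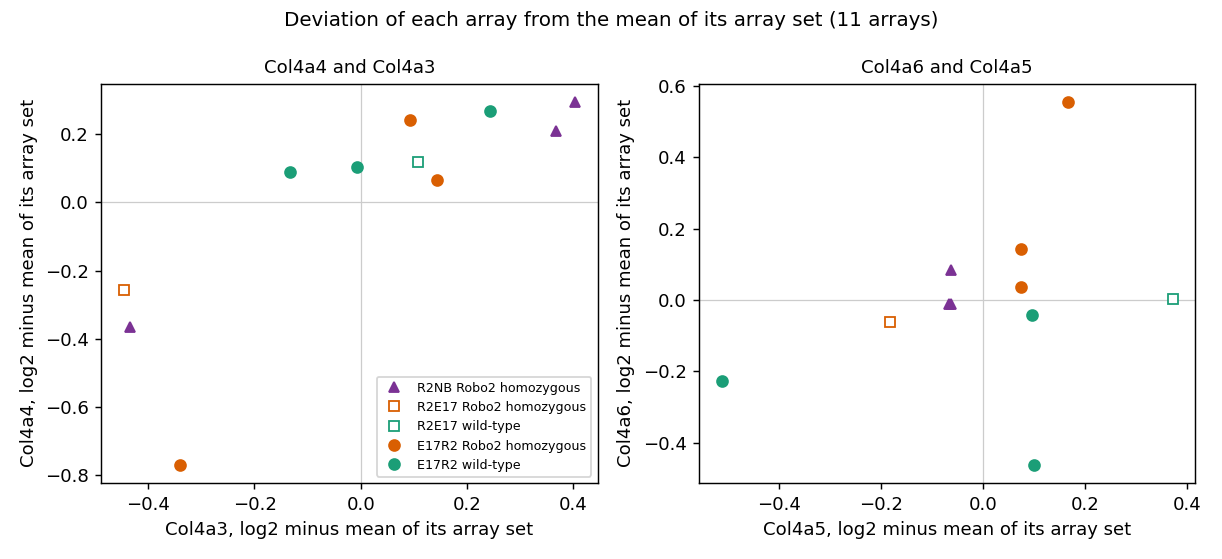
Deviation of each array from the mean of its set (log2) for Col4a4 against Col4a3 (left) and Col4a6 against Col4a5 (right), 11 arrays. Symbols give title series and genotype. The left panel rises together (Pearson correlation 0.83), with R2NB array 3 and the homozygous R2E17 array low on both axes, and the right panel is scattered (0.33).

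The genes most like each chain in this pattern were listed by the same correlation over 11 arrays, among 9145 genes of at least median mean rank. For Col4a1 they were Pdlim5 (0.88), Serpinb6b (0.86) and Fos (0.85), and for Col4a2 Capns1 (0.89), Stap2 (0.86) and Alas2 (0.85). Col4a3 was most like Atpsckmt (0.95), Pggt1b (0.94) and Nfat5 (0.93), and Col4a4 like Afdn (0.97), Gimap6 (0.95) and Mark3 (0.95). For Col4a5 the nearest were Smad1 (0.98), Rps20 (0.97) and Cdh11 (0.97), for Col4a6 Tgfb2 (0.97), P3h3 (0.96) and Cd81 (0.96). No chain was among the 3 nearest of another, but Col4a6 ranked below the cut for searched genes and could not have been listed. For Col4a6 the likeness lay mainly in the set of 6, with correlations of 0.98, 0.99 and 0.97 there against 0.58, 0.66 and 0.12 in the set of 5.

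Other genes of the basement membrane were followed as lists. In the E17R2 genotype comparison limma called none of them, as it called 0 genes in all. The partner proteins, such as laminins and proteoglycans of the same sheet, had 10 of 13 genes below 0 and a median of -0.06, with Lama1, the laminin chain of early kidney basement membranes, at -0.61 ± 0.25 and Agrn, a heparan sulfate proteoglycan of the glomerular membrane, at -0.26 ± 0.12. Without homozygous array 9 Lama1 was at -0.31 and Agrn at -0.15, and 11 of 13 partners lay below 0 (median -0.10). Among the enzymes and chaperones that fold and modify the chains 13 of 15 lay above 0 (median 0.12), with Creb3l1, a transcription factor of the secretory pathway, at 0.41 ± 0.15 and P3h2, a prolyl hydroxylase of type IV collagen, at -0.43 ± 0.21. Without array 9 Creb3l1 was at 0.24, P3h2 at -0.22 and the list's median at 0.06. Cross-linking and turnover genes had 11 of 12 above 0 (median 0.20), with the gelatinase gene Mmp2 at 0.44 ± 0.12, and the median was 0.08 without array 9. Collagen receptors had 3 of 8 above 0 (median -0.02), and 1 of 8 without array 9 (median -0.09).

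The regulator list had 3 of 8 above 0 (median -0.16), and 4 of 8 without array 9 (median -0.04). Its smallest p belonged to Lmx1b, a homeodomain factor of podocytes named for control of Col4a3 and Col4a4. Lmx1b read 5.23, 5.34 and 5.09 in homozygous arrays 2, 8 and 9, against 5.88, 5.89 and 6.13 in wild-type arrays 1, 3 and 7. The groups lay well apart, and the difference of -0.74 ± 0.11 (SE) had a limma adjusted p of 0.840 (unadjusted 3.55e-04). Without array 9 it was -0.68 ± 0.11, whereas Col4a3 and Col4a4 were then at 0.08 and 0.0009. Lmx1b read 6.76 against 6.68 in the R2E17 pair, and the difference between the title series was -0.82 ± 0.22 (adjusted p = 0.288). Tgfb2, a growth factor that raises matrix production, was at 0.70 ± 0.26, and at 0.41 ± 0.15 without array 9.

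The collagens outside the type IV family were set beside the chains. All 10 fibrillar and related collagen genes lay above 0 in E17R2, with a median of 0.53, which was 0.24 without homozygous array 9. In the R2E17 pair 9 of the 10 lay below 0, with a median of -0.32. Col6a2, a chain of the beaded filaments beneath basement membranes, was at 0.88 ± 0.19 and Col6a1 at 0.83 ± 0.28, neither past the limma threshold (adjusted p = 0.840 each). Without array 9 Col6a2 was at 0.65 and Col6a1 at 0.49. In the same comparison 8 of 8 smooth muscle markers lay above 0 (median 0.89), while 6 of 6 podocyte (-0.54) and 8 of 8 endothelial markers (-0.35) lay below. All markers measured also lay below 0 for the adrenal (6, median -1.23), the loop of Henle and distal tubule (5, -0.86), the proximal tubule (7, -0.76) and the collecting duct (6, -0.25). Without array 9 the smooth muscle direction turned, with 7 of 8 below 0 and a median of -0.29. The 6 lists wholly below 0 stayed so. Their medians were then -0.44 for podocytes, -0.21 for endothelium and -1.0 for the adrenal. They were -0.54 for the loop of Henle, -0.41 for the proximal tubule and -0.12 for the collecting duct. The stromal list went the other way, with 4 of 5 markers above 0 (median 0.41), and 5 of 5 without array 9 (0.39). With all 6 arrays the mesangial and pericyte, nephron progenitor and brain lists were mixed, with medians of -0.02, -0.11 and 0.003. On array 9 the smooth muscle list averaged 11.2, against 6.96 to 7.75 on the other 5 arrays of E17R2, and Col4a6 was highest and Col4a4 lowest there. The adrenal list averaged 8.39 and 8.15 on wild-type arrays 1 and 3 and 6.72 on homozygous array 2. It averaged 4.80 on wild-type array 7 and 4.75 and 4.43 on homozygous arrays 8 and 9, so the genotypes overlapped in that list. The part of these cell types in the chain values was not tested.

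In the rank comparison the partner proteins had 8 of 13 genes called higher in the set of 5 and 0 lower. Over all genes 23.7% were called higher and 25.4% lower. The median shift of the partners was 1.88 points, against -0.21 over all genes. Lama5, the laminin chain of the mature glomerular membrane, stood at percentiles 77.1 to 82.3 in the set of 5 and, apart from these, 68.0 to 72.9 in E17R2, a shift of 10.6 ± 1.01 points (SE, limma adjusted p = 4.15e-05). The others called were Tinagl1 (17.4), Lama1 (7.71), Lamc1 (5.57), Col15a1 (4.89), Lamb2 (4.80), Agrn (1.88) and Npnt (1.55). The count was 5 without the wild-type array of the pair, a fit that called 3773 of all 18193 genes higher. It was 2 without the R2NB arrays, a fit that called 2613 of all genes higher, so 2 of 13 was then near the share over all genes. Receptors had 2 of 8 higher, Itgb1, the shared beta subunit of collagen-binding integrins (6.48), and Ddr1, a collagen-activated tyrosine kinase (3.19).

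In the fit of all arrays, each list apart from the partner proteins had counts near or below the shares over all genes, 23.7% higher and 25.4% lower. The enzymes and chaperones had 2 of 15 higher, Plod2 (6.92) and Colgalt1 (3.52), and 2 lower, P4ha2 (-13.0) and Sec23a (-4.01). Cross-linking and turnover genes had 3 of 12 higher, Loxl1 (5.52), Loxl4 (3.73) and Timp3 (3.06), and 3 lower, Timp1 (-11.2), Bmp1 (-6.57) and Mmp14 (-4.25). Among regulators Tgfb1 (9.95) and Sp3 (7.54) were higher and Tgfb2 (-11.2) lower, while Lmx1b was at 0.81 ± 1.23 (adjusted p = 0.618). Of the fibrillar and related collagens 0 of 10 were called higher and 2 lower, Col11a1 (-11.1) and Col5a2 (-2.43). Within these 6 lists the largest upward shift with all arrays was that of Tinagl1, below those of Col4a3 and Col4a4. That order rests on homozygous array 9, where Tinagl1 stood at percentile 92.0, against 63.8 to 67.0 on the other E17R2 arrays. It stood at 87.0 to 91.2 on the R2E17 and R2NB arrays. Without array 9 the shifts were 21.6 for Col4a4 and 19.8 for Col4a3, and that of Tinagl1 is not given here. The loop of Henle and distal tubule markers had a median shift of 23.2 points.

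**Figure D5:**
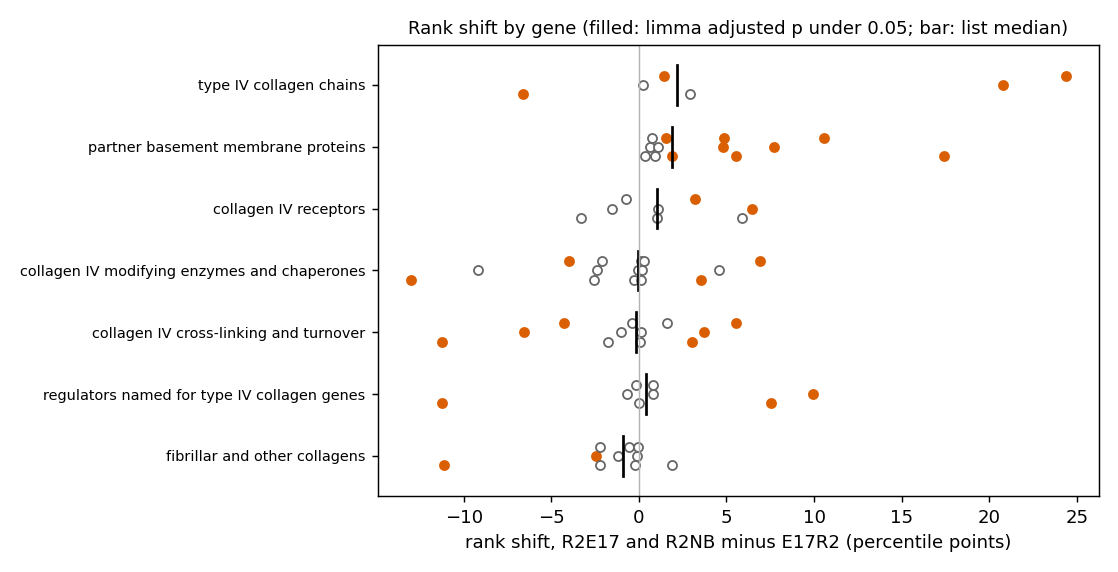
Rank shift in percentile points (x axis), the set of 5 (R2E17 and R2NB) minus the set of 6 (E17R2), for the type IV collagen chains and 6 lists of related genes. Each circle is a gene, filled where the limma adjusted p is under 0.05, and vertical bars are list medians. With all arrays fitted Col4a4 (24.4) and Col4a3 (20.8) lie furthest to the right, and Tinagl1 (17.4) comes next. Tinagl1 stood at percentile 92.0 on homozygous array 9 of E17R2, against 63.8 to 67.0 on the other E17R2 arrays.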

How the data were processed

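The authors deposited RMA intensity values on a linear scale (the tool is named in the submitters' processing notes, without a version). All 45101 probe sets of the 11 arrays were read; 64 control probe sets were set aside, 34945 of the rest had 1 gene symbol in the platform annotation, 932 several and 9160 none here. Log2 was taken with no pseudocount. Tests used limma 3.58.1 in R 4.3.3 (lmFit, eBayes, 2-sided, Benjamini-Hochberg over 18193 genes, threshold 0.05) and were checked on simulated data. The E17R2 genotype fit used its 6 arrays only. Rank shifts were fitted on percentile ranks of all 11 arrays with genotype as a covariate. The number of arrays limits the precision.

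The members, the lists and the tests were chosen with earlier results of these data known. Besides the 6 chains, named genes are the 3 most like each chain (mean percentile rank of at least 50), list genes past the threshold or with the 2 smallest p per comparison, and up to 3 of the brightest markers of a cell type. Loxl2 was not measured. Alternatives were other normalizations, a filter on genes with a mean percentile rank under 25, every probe set as a feature, other eBayes settings, and each array left out in turn.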

Additional observations from a re-analysis of the deposited data

How the results depend on the processing

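The alternatives called 0 genes in the E17R2 genotype comparison, except that 1 was called without wild-type array 7 (range 0 to 1 with 1 array left out). The direction turned in some fits with 1 array left out for Col4a1 (-0.035 to 0.013), Col4a3 (-0.16 to 0.084) and Col4a4 (-0.51 to 0.00092), while Col4a6 stayed above 0 in all 13 alternatives. In the rank comparison 8934 genes were called, 16176 with every probe set as a feature, where more features were tested, 5108 without the R2NB arrays, where fewer samples were fitted, and 7814 to 8943 with 1 array left out. Col4a3 and Col4a4 were called in all 17 alternatives. R2NB against the homozygous R2E17 array gave 0 calls, and 2 in a fit of all 11 arrays. The difference between the title series gave 8 calls, 22 with trend and robust settings, 34 with every probe set, 3 with all 11 arrays, and 3 to 10 with 1 array left out. Col4a4 ran there from -0.13 to 0.38 with 1 array left out. Where no cause is named, it was not tested. No paired analysis was possible because the groups compared share fewer than 2 replicate numbers. Precision is limited by 3 arrays a group and by 1 array in each arm of the R2E17 pair.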

Other observations

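Col4a5 and Col4a6 lie on the X chromosome, and the arrays differ in sex-linked transcripts, genes that were looked up after the chains' values were seen. Xist, which coats the inactive X chromosome, read 4.57 to 4.89 on homozygous array 2 and wild-type array 7 of E17R2 and on the 3 R2NB arrays, and the Y-linked Kdm5d read 6.34 to 7.52 there. On the other 6 arrays Xist read 10.8 to 12.5 and Kdm5d 1.99 to 3.13. Wild-type array 7 had the lowest Col4a5 of E17R2 (8.31), but homozygous array 2, with the same Xist reading of 4.72, had 8.89. Col4a6 read 6.01 and 5.75 on those 2 arrays, inside the range of their set.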
